A study of Homo sapiens with 6 samples.

Results

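The genes described here encode the enzymes of cholesterol and fatty acid synthesis and the proteins that switch them on, 28 of the 57820 genes in the deposited tables. They were chosen by name as sterol regulatory element-binding protein (SREBP) factors and genes usually counted among their targets. The rule itself uses no measured value, but the members were chosen with earlier results of these data known. Untreated AID-DIvA cells were profiled by RNA-seq in 3 WT and 3 ARID1A-KO samples, with replicate numbers from 3 to 5 for either genotype. AID-DIvA cells are U2OS cells, an osteosarcoma line, with an integrated vector for the restriction enzyme AsiSI, which enters the nucleus only after 4-hydroxytamoxifen is added. Both genotypes carried this vector and neither was treated, so the samples report on cells without induced breaks. ARID1A is a DNA-binding subunit of the canonical BAF chromatin remodeling complex. It was disrupted by CRISPR-Cas9 in cells from which knockout clones were established. Which clone was sequenced is not stated. One clone may lie behind all 3 ARID1A-KO samples, and a difference between the clone and its parent cannot be told apart from one due to ARID1A. Nor do the labels say whether samples of a genotype came from separate cultures. The p-values set the difference of genotypes against the spread between these samples. They leave out any spread between cultures or clones that these samples do not hold.

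Reverse-stranded counts came to between 54512105 and 84088708 per sample, and members had between 264 and 55126 counts in a sample. ARID1A had 173 ± 6.67 CPM (counts scaled to library size) in WT and 25.9 ± 1.38 CPM in ARID1A-KO samples (mean ± SD, n = 3 each), a log2 fold change of -2.74 (adjusted p = 9.66e-08, edgeR's quasi-likelihood test). The mesenchymal markers VIM, SPARC and COL1A1 were at 85.8 TPM (transcripts scaled by gene length and depth) or more in every sample. The bone markers BGLAP and IBSP were below 1 TPM in every sample, and ALPL was at 6.33 to 12.8 TPM in WT and 1.61 to 2.31 TPM in ARID1A-KO samples. RUNX2, another bone marker, was at 5.42 to 6.67 TPM in WT and 4.42 to 7.79 TPM in ARID1A-KO samples. EPCAM, an epithelial surface protein, was at 5.58 to 9.29 TPM, whereas KRT5, KRT19, CLDN7, CDH1, PTPRC, CD68, CDH5, ADIPOQ, PLIN1, FABP4, ALB and APOA1 were below 1 TPM in every sample. Of the 5 mesenchymal and bone markers tested, VIM was higher and COL1A1, SPARC and ALPL were lower in ARID1A-KO samples. RUNX2 had a log2 fold change of -0.03 (adjusted p = 0.899, edgeR's quasi-likelihood test). Of the 2 epithelial ones tested, EPCAM was higher and CDH1 lower. Summed over the list, mesenchymal and bone markers came to 2142 to 2358 TPM in WT and 3033 to 3343 TPM in ARID1A-KO samples, mostly from VIM. Epithelial markers came to 6.29 to 8.84 TPM in WT and 9.49 to 9.82 TPM in ARID1A-KO samples, and blood and endothelial markers to 0.819 to 1.16 and 0.438 to 0.585 TPM. The lower blood and endothelial sum came from PTPRC, at means of 0.75 TPM in WT and 0.17 TPM in ARID1A-KO samples. CD68 (0.023 and 0.092 TPM) and CDH5 (0.16 and 0.23 TPM) had higher means in ARID1A-KO samples. The higher epithelial sum came mostly from EPCAM (6.72 and 9.08 TPM), while CDH1 had means of 0.67 and 0.29 TPM. Any part of these differences in the members' values was not tested. In bulk RNA, fewer cells of a type and less RNA per cell cannot be told apart.

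Cells build cholesterol from acetyl-CoA through mevalonate, isoprenoids, squalene and lanosterol, and they build fatty acids from the same acetyl-CoA. Both routes are governed by SREBPs, membrane-bound transcription factors that SCAP escorts from the endoplasmic reticulum to the Golgi, where proteases release the active part. When sterols are plentiful, INSIG1 and INSIG2 hold SCAP and its cargo in the endoplasmic reticulum and the target genes are quiet. In osteosarcoma lines in culture, as in other dividing cells, these pathways supply membrane lipid.

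Sequences upstream of some members are shown because SREBPs act at short promoter elements with helper factors that bind CCAAT and GC-rich boxes. RefSeq promoter windows (GRCh38.p14, 250 bases before to 50 after a transcription start) were found for 24 of the 28 members. The sterol element TCACNCCAC was searched on both strands and was present in 1 member, SREBF2, and in 1.39% of the 27305 genes with a window. The E-box CACGTG was present in 3 members, INSIG1, SCAP and LSS, and in 8.77% of genes. A CCAAT box was present in 18 of 24 members (75%) and in 39.7% of genes, counting a match on either strand at any start. A GC box, GGGCGG or its complement CCGCCC, was present in 23 of 24 members (95.8%) and in 48.3% of genes. These shares describe letters in a fixed window, and a missing match says only that these letters are not there.

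The 200 bases before the start are given for the gene of the SREBP factor with the sterol element, for the INSIG gene with an E-box and for its paralog INSIG2. They are also given for MSMO1, MVD and PMVK, 3 of the enzymes that differed between genotypes. Of the others that differed, ACAT2 had no window, and ACACA, with 3 starts, is not printed. SREBF2 lies at chr22:41832905-41833104 on the plus strand, INSIG1 at chr7:155297678-155297877 on the plus strand and INSIG2 at chr2:118088271-118088470 on the plus strand. MSMO1 lies at chr4:165327469-165327668 on the plus strand, MVD at chr16:88663092-88663291 on the minus strand and PMVK at chr1:154936720-154936919 on the minus strand (all GRCh38.p14). Capitals mark TCACNCCAC, CACGTG and CCAAT on either strand, no match overlaps another, and GC boxes are not marked.
SREBF2: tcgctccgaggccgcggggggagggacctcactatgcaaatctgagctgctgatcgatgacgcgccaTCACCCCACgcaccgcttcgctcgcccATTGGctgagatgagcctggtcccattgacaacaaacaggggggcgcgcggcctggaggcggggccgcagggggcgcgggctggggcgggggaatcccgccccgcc
INSIG1: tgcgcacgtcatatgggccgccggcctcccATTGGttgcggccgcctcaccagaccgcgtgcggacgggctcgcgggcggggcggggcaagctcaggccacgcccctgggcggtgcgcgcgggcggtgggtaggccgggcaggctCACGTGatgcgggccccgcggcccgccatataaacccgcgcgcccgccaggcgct
INSIG2: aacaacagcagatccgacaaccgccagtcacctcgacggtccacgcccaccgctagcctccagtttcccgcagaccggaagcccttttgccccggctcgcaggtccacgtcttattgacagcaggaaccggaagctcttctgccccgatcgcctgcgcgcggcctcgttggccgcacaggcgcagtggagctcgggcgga
MSMO1: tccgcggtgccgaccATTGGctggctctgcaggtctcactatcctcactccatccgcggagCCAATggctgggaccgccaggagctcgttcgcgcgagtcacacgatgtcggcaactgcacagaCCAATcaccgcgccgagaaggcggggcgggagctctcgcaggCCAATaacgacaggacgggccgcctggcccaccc
MVD: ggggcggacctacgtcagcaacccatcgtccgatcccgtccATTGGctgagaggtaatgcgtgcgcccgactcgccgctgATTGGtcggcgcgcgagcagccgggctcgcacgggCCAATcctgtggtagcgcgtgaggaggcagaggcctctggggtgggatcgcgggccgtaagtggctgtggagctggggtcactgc
PMVK: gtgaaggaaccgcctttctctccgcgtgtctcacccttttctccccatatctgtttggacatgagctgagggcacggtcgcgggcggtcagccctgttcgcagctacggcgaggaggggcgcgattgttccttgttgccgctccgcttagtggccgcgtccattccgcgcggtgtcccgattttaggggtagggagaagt
The SREBF2 window holds the sterol element TCACCCCAC at position -133, counted back from the start, followed by a CCAAT box. In INSIG1, the E-box is at -55 and a CCAAT box at -170. The enzymes MSMO1 and MVD hold 4 and 3 CCAAT boxes, whereas INSIG2 and PMVK hold none of the marked motifs in these bases. ACACA held none of them in the 200 bases before the first of its 3 starts.

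Transcript levels of the members spanned a wide range. Compared per length, ACLY, which makes cytosolic acetyl-CoA from citrate, was the most abundant member, with 404 ± 38.3 TPM in WT and 411 ± 13.4 TPM in ARID1A-KO samples (mean ± SD, n = 3 each, as for all means below). HMGCS1, which makes HMG-CoA, followed with 255 ± 26.8 and 298 ± 34.5 TPM. FASN, the fatty acid synthase, had 181 ± 25.7 and 208 ± 25 TPM. These 3 enzymes together with SCD and FDPS held ranks 1 to 5 in both genotypes. The lowest member was CYP51A1, lanosterol demethylase, with 3.84 ± 0.633 and 4.98 ± 0.174 TPM. Among the regulators, SREBF2 was at 53.0 ± 6.61 and 47.7 ± 3.57 TPM, SREBF1 at 19.7 ± 2.43 and 24.9 ± 6.45 TPM and INSIG1 at 7.45 ± 2 and 10.1 ± 1.76 TPM.

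**Figure D1:**
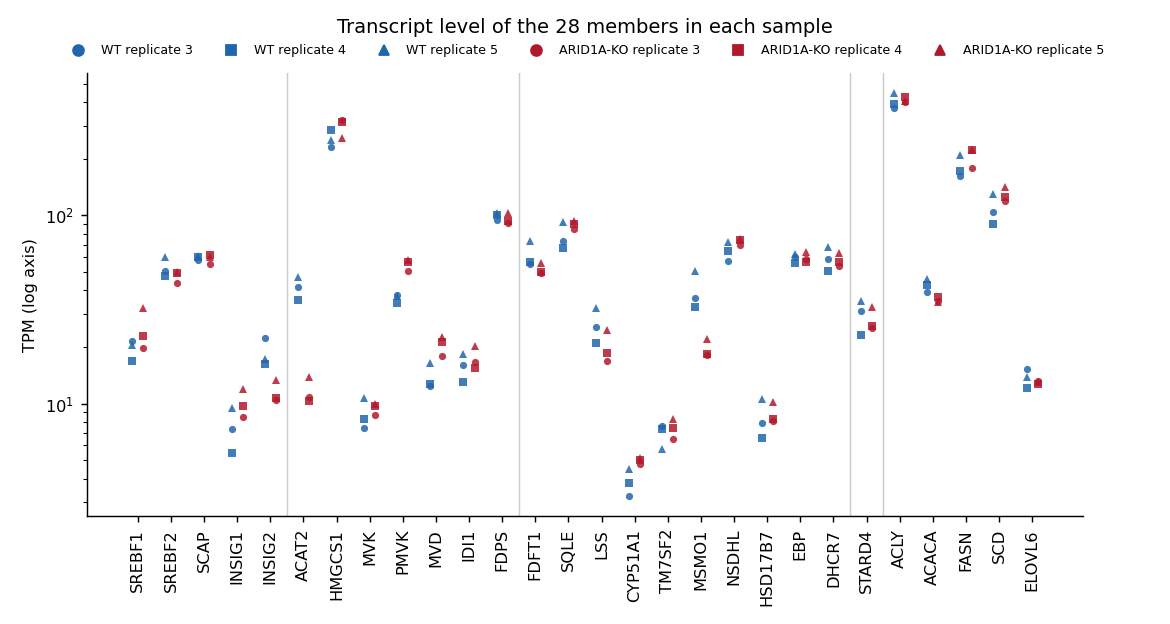
Transcript level of each of the 28 members in TPM (log axis), in the order of their roles, with grey lines between SREBP control, mevalonate steps, squalene and sterol steps, sterol transport and fatty acid synthesis. Blue symbols are WT and red symbols ARID1A-KO samples, and the symbol gives the replicate number. ACLY sits highest and CYP51A1 lowest, and the genotypes are widely separated for ACAT2 and MSMO1.

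Levels were also summed over each role. The 7 mevalonate genes came to 470 ± 27.2 TPM in WT and 508 ± 18.8 TPM in ARID1A-KO samples. The difference of means was larger than either SD, although the sums of WT samples (439, 487 and 484 TPM) overlapped those of ARID1A-KO samples (517, 520.2 and 486 TPM). HMGCS1 dominates this sum, at means of 255 and 298 TPM, and its change did not pass the test below. Means of the other mevalonate genes went both ways. The 10 genes from squalene to cholesterol came to 407 ± 55.6 and 392 ± 26.4 TPM. The 5 fatty acid genes came to 749 ± 84.3 and 796 ± 42.6 TPM. All 28 together came to 1815 ± 165 TPM in WT and 1878 ± 69.6 TPM in ARID1A-KO samples. No test was run on these sums, in which abundant enzymes weigh most.

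WT replicate 5 stood apart for these genes. It was the highest of the WT samples for 23 of the 28 members (82.1%), and for 31.6% of all genes tested. Relative to the WT mean, its members had a median deviation of 0.21 on the log2 CPM scale, and 25 of 28 lay above the mean, whereas the median over all genes was -0.00029. The 17 enzymes from mevalonate to cholesterol were above the mean in 15 cases, with a median of 0.23. The median deviations of the members were -0.07 in WT replicate 3 and -0.12 in WT replicate 4. Among ARID1A-KO samples, replicate 5 was highest for 16 members (57.1%) and for 41.4% of all genes, with a median deviation of 0.06, against -0.05 and -0.03 in replicates 3 and 4. Values and counts of calls are given below with and without WT replicate 5. It was singled out on the values of these same members, so leaving it out raises the change of most of them by construction. The adjusted p-values without it are therefore descriptions only, and what set it apart was not tested.

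**Figure D2:**
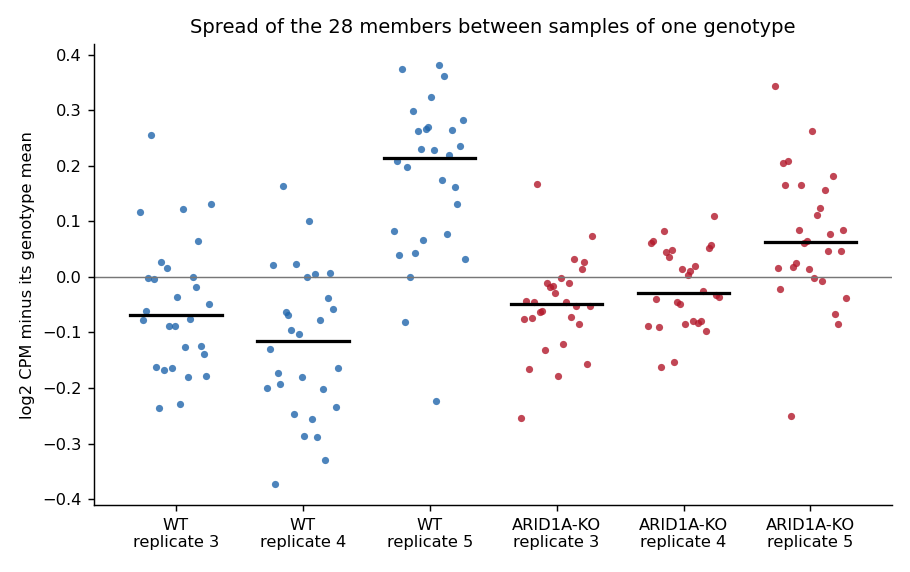
Deviation of each member from the mean of its genotype, in log2 CPM, for the 6 samples. Each point is 1 of the 28 members and the black line is their median, which is 0.21 in WT replicate 5 and between -0.12 and 0.06 in the other samples.

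The genotypes were then compared gene by gene. Of 28 members, all tested, 6 passed an adjusted p of 0.05 in edgeR's quasi-likelihood test (21.4%), whereas 36.2% of all 19599 genes tested did. MVD and PMVK, consecutive steps of the mevalonate route, were higher in ARID1A-KO samples. They make 2 of 28, against 17.8% of all genes called higher. ACAT2, MSMO1, INSIG2 and ACACA were lower, 4 of 28 against 18.4% of all genes called lower. CPM values of the genotypes did not overlap for 7 members, 3 higher and 4 lower, whereas this held for 49.5% of all genes. Among the 11253 genes at least as abundant as the lowest member, 39.7% passed the test. The members' share against that of all genes depended on the settings. With no filter on low counts, 13 of 28 members passed (46.4%, against 22.6% of all genes). That fit took in 36390 genes, among them those the filter removes for low counts. No share among genes as abundant as the members was taken for it. With an offset on GC content 11 of 27 passed (40.7%, against 37.1%), and with a block for the replicate number 12 of 28 (42.9%, against 38.1%).

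The members' values lay in both directions. Their log2 fold changes (ARID1A-KO over WT) ran from -1.82 to 0.61 with a median of 0.06, beside a median of 0.0066 for all genes, and 16 were above and 12 below 0. For 23 of the 28 members the change was within 0.5 of 0 on the log2 scale, a share of 82.1%, beside 71% of all genes and 83.1% of genes at least as abundant as the lowest member. ACAT2 and MSMO1 passed 1 in size, 7.14% of the members, beside 11.7% and 4.52% of those genes. The median size of the change, regardless of sign, was 0.21 for the members, 0.27 for all genes and 0.19 for genes at least that abundant. Without WT replicate 5, 11 members passed the test (39.3%), 8 higher and 3 lower. INSIG1, SQLE, CYP51A1, NSDHL, FASN and SCD were then also called higher and ACACA was no longer called, while 29.9% of all genes passed. The number of members called higher thus depended on this sample. With all 6 samples kept, it also rose with no filter, with the GC or exonic length offset, with a block for the replicate number and with DESeq2. The calls of ACAT2, MSMO1, INSIG2, PMVK and MVD held without WT replicate 5.

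**Figure D3:**
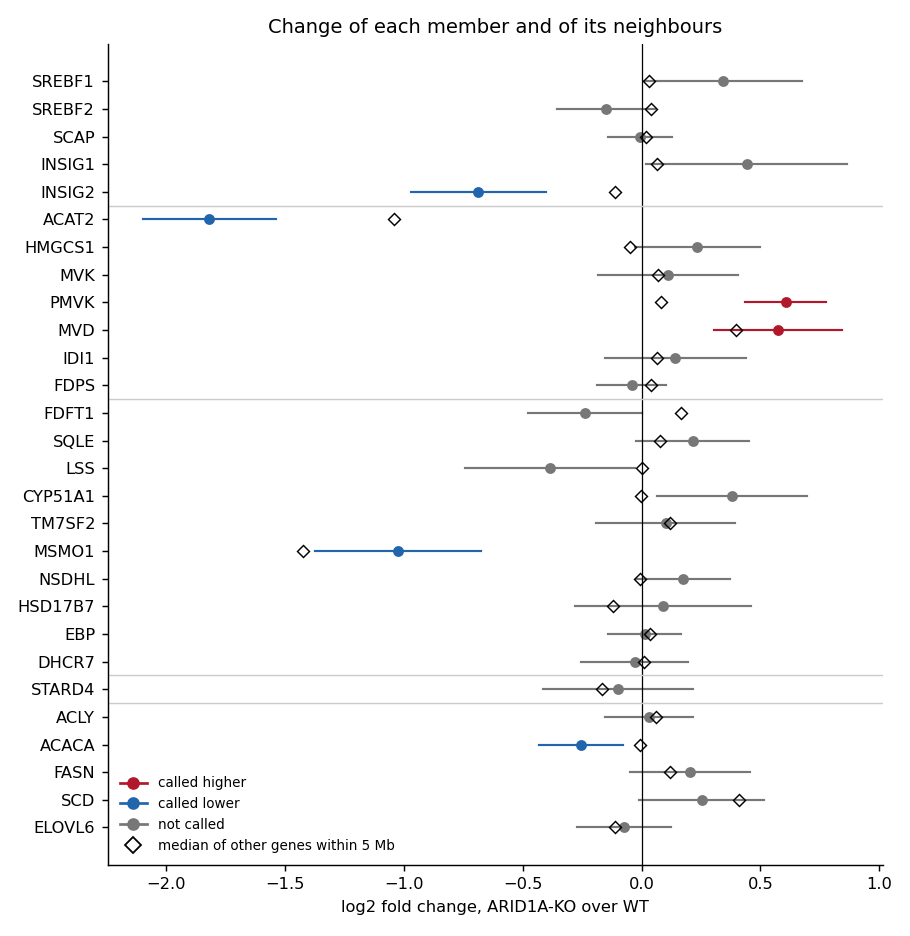
Log2 fold change (ARID1A-KO over WT) of each member with its 95% confidence interval, in the order of their roles, and as open diamonds the median log2 fold change of the other tested genes within 5 Mb. Red members were called higher, blue members lower and grey members were not called. ACAT2 lies at -1.82 with its neighbours at -1.04, and MSMO1 at -1.03 with its neighbours at -1.42.

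Of the 5 regulators, 1 was lower (20%, beside 36.2% of all genes called either way) and none was called higher. INSIG2, which retains SCAP in the endoplasmic reticulum and, unlike INSIG1, is not known as a direct SREBP target, had 26.5, 19.6 and 20.9 CPM in WT and 13.1, 12.9 and 15.5 CPM in ARID1A-KO samples. Every ARID1A-KO sample lay below every WT sample. INSIG2 fell by 0.69 on the log2 scale (95% CI -0.97 to -0.40, SE 0.13, adjusted p = 0.00265, edgeR's quasi-likelihood test), to 0.621 of the WT level. The gene (ENSG00000125629.10) spans positions 118846028 to 118868573 of chromosome 2 on the plus strand in GRCh37. It was called lower under all 15 alternatives tried, each of which changed 1 setting or left out 1 sample.

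INSIG1, the paralog whose transcript SREBP activity raises, went the other way in value but did not pass the test. It had 8.08, 6.13 and 10.6 CPM in WT and 9.89, 10.8 and 12.9 CPM in ARID1A-KO samples. WT replicate 5 overlapped the ARID1A-KO samples, while the other WT samples were below all of them. Its log2 fold change was 0.44 (95% CI 0.02 to 0.87, adjusted p = 0.0949, edgeR's quasi-likelihood test). Without WT replicate 5 it was 0.66 (adjusted p = 0.0209). As a ratio of TPM values, chosen after the values were seen and given with no test, INSIG1 to INSIG2 was 0.330, 0.339 and 0.551 in WT and 0.818, 0.908 and 0.902 in ARID1A-KO samples. INSIG2 was thus the more abundant paralog in every sample, and the ratio was nearer to 1 in each ARID1A-KO sample.

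SREBF1 encodes the SREBP-1 isoforms, the factors most tied to fatty acid synthesis. It had 52.1, 41.6 and 50.8 CPM in WT and 50.3, 56.4 and 76.3 CPM in ARID1A-KO samples. ARID1A-KO replicate 5 was well above the others and the genotypes overlapped. The log2 fold change was 0.34 (95% CI 0.01 to 0.68, adjusted p = 0.0999, edgeR's quasi-likelihood test). Of the fits with a sample left out, SREBF1 was called only without ARID1A-KO replicate 3. SREBF2, which encodes SREBP-2, the factor most tied to cholesterol synthesis, had a log2 fold change of -0.15 (95% CI -0.35 to 0.06). Only with the offset on GC content was SREBF2 called, lower at -0.25 (adjusted p = 0.0492, edgeR's quasi-likelihood test). For SCAP, the escort, the change was -0.01 with a narrow interval of -0.14 to 0.13, at 109 to 119 CPM in all 6 samples. The ratio of SREBF2 to SREBF1 in TPM was 2.71 ± 0.314 in WT and 1.97 ± 0.367 in ARID1A-KO samples, so SREBF2 was the more abundant SREBP transcript in both genotypes.

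The mevalonate steps held the largest change and both members called higher, with 2 of 7 genes higher and 1 lower. The share called, 42.9%, was near the 36.2% of all genes. ACAT2, the cytosolic acetoacetyl-CoA thiolase that joins 2 acetyl-CoA molecules at the first step, had 54.6, 47.8 and 62.9 CPM in WT and 15, 13.8 and 18 CPM in ARID1A-KO samples. The highest ARID1A-KO sample was far below the lowest WT sample. ACAT2 fell by 1.82 on the log2 scale (95% CI -2.10 to -1.54, SE 0.12, adjusted p = 1.04e-05, edgeR's quasi-likelihood test), a level 3.53-fold higher in WT. It was called lower under all 15 alternatives. The gene (ENSG00000120437.7) lies on the plus strand of chromosome 6 at 160181360 to 160200144 in GRCh37. It overlaps TCP1 and SOD2 on the opposite strand, and 59.2% of the counts assigned to ACAT2 on either strand were on the other strand, so the choice of stranded counts matters for this gene. In TPM, ACAT2 went from 41.4 ± 5.56 TPM in WT, rank 14 of the 28, to 11.7 ± 1.95 TPM in ARID1A-KO samples, rank 22.

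HMGCS1, which adds the next acetyl group, had a log2 fold change of 0.23 (95% CI -0.03 to 0.50) and did not pass the test. Its CPM values were 325, 407 and 363 in WT and 478, 451 and 358 in ARID1A-KO samples, and ARID1A-KO replicate 5 lay among the WT samples. Of the fits with a sample left out, HMGCS1 was called higher only without ARID1A-KO replicate 5. MVK, mevalonate kinase, had a log2 fold change of 0.11 (95% CI -0.18 to 0.41).

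PMVK, phosphomevalonate kinase, separated the genotypes with little spread. It had 14.5, 13.5 and 14.6 CPM in WT and 20.7, 22.1 and 22 CPM in ARID1A-KO samples. All ARID1A-KO samples were above all WT samples, with an SD of 0.61 CPM in WT and 0.806 CPM in ARID1A-KO samples. PMVK rose by 0.61 on the log2 scale (95% CI 0.44 to 0.78, SE 0.08, adjusted p = 0.000304, edgeR's quasi-likelihood test), 1.52-fold. It was called higher under all 15 alternatives. The gene (ENSG00000163344.5) lies on the minus strand of chromosome 1 at 154897210 to 154909467 in GRCh37. The TPM ratio of PMVK to MVK, described with no test, was 3.49 to 5.06 in WT and 5.80 to 5.87 in ARID1A-KO samples.

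MVD, the decarboxylase that follows PMVK and yields isopentenyl diphosphate, had 17.5, 18.4 and 23.8 CPM in WT and 26.9, 30.6 and 31.3 CPM in ARID1A-KO samples. The genotypes did not overlap, although WT replicate 5 came near the lowest ARID1A-KO sample. MVD rose by 0.57 on the log2 scale (95% CI 0.30 to 0.84, SE 0.12, adjusted p = 0.005, edgeR's quasi-likelihood test), 1.49-fold. It lies on the minus strand of chromosome 16 at 88718343 to 88729569 (ENSG00000167508.6, GRCh37). The last mevalonate members had small values that did not pass the test, with a log2 fold change of 0.14 (95% CI -0.15 to 0.44) for IDI1, the isomerase, and -0.04 (95% CI -0.19 to 0.10) for FDPS, which makes farnesyl diphosphate.

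**Figure D4:**
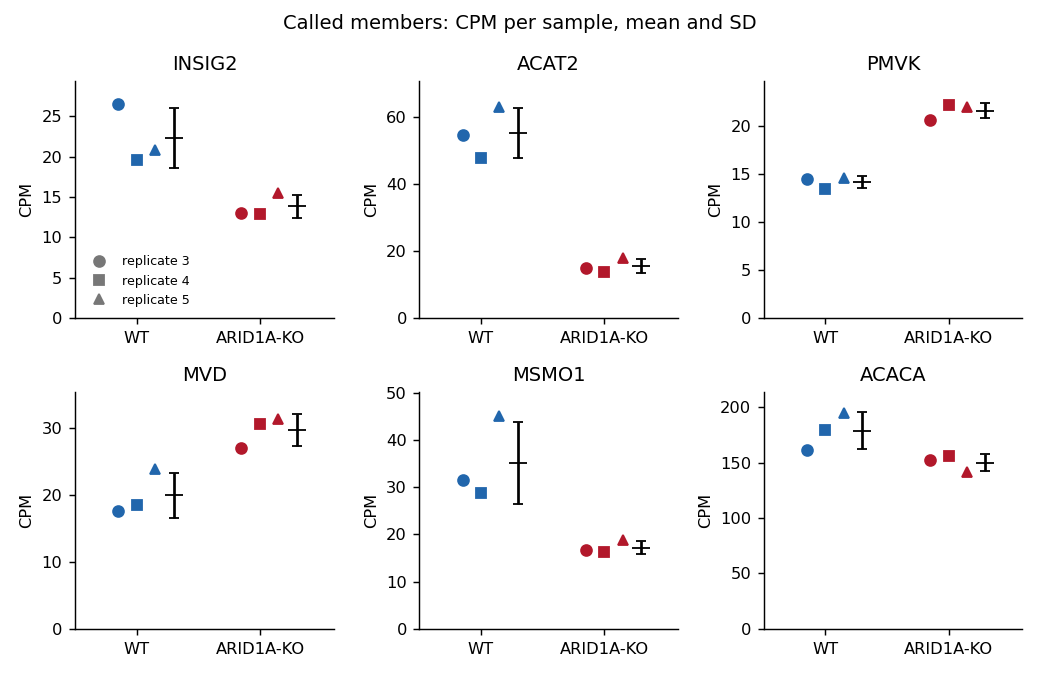
CPM of the 6 called members in each sample, from 0, with WT in blue and ARID1A-KO in red. Symbols give the replicate number and the black bars the mean and SD of 3 samples. ACAT2 has WT samples at 47.8 CPM or more and ARID1A-KO samples at 18 CPM or less, whereas for ACACA the lowest WT sample is at 162 CPM and the highest ARID1A-KO sample at 156 CPM.

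From squalene to cholesterol, 1 of 10 genes was lower (10%, beside 36.2% of all genes called either way) and none was called higher. MSMO1, the methylsterol monooxygenase that starts removal of the C4 methyl groups, had 31.6, 28.8 and 45.1 CPM in WT and 16.6, 16.2 and 18.8 CPM in ARID1A-KO samples. WT replicate 5 was the highest, and the other WT samples were still well above the ARID1A-KO samples. MSMO1 fell by 1.03 on the log2 scale (95% CI -1.37 to -0.68, SE 0.15, adjusted p = 0.000873, edgeR's quasi-likelihood test), a level 2.04-fold higher in WT. Without WT replicate 5 the change was -0.81. The gene (ENSG00000052802.8) lies on the plus strand of chromosome 4 at 166248775 to 166264312 in GRCh37.

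NSDHL, the dehydrogenase acting next on the same methyl groups, had a value on the other side of 0 and did not pass the test. NSDHL had 34.5, 39.3 and 44.2 CPM in WT and 44, 45 and 44.1 CPM in ARID1A-KO samples, a log2 fold change of 0.17 (95% CI -0.03 to 0.37). The TPM ratio of MSMO1 to NSDHL, with no test, was 0.631, 0.505 and 0.703 in WT and 0.261, 0.249 and 0.294 in ARID1A-KO samples. HSD17B7, the ketoreductase that completes each round of demethylation, had a log2 fold change of 0.09 (95% CI -0.28 to 0.46). It shares near-identical sequence with the pseudogene HSD17B7P2, which had 185 to 374 counts per sample against 574 to 1093 for HSD17B7, so its value is uncertain.

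CYP51A1, which removes the C14 methyl group of lanosterol, was the only member whose genotypes did not overlap without passing the test. It had 3.96, 4.72 and 5.62 CPM in WT and 6.20, 6.22 and 6.19 CPM in ARID1A-KO samples. The ARID1A-KO samples were nearly equal and above each WT sample. Its log2 fold change was 0.38 (95% CI 0.07 to 0.70, adjusted p = 0.0597, edgeR's quasi-likelihood test), and 0.51 (adjusted p = 0.0223) without WT replicate 5. LSS, which closes squalene epoxide into lanosterol, had the opposite sign, with 55.4, 46.5 and 71.3 CPM in WT and 38.5, 41.2 and 52.5 CPM in ARID1A-KO samples. The genotypes overlapped, and the log2 fold change was -0.39 (95% CI -0.74 to -0.03, adjusted p = 0.0869, edgeR's quasi-likelihood test). LSS was called lower under 6 of the 15 alternatives, with an adjusted p of 0.0313 with the GC offset and of 0.0196 without WT replicate 4, and was at -0.21 (adjusted p = 0.299) without WT replicate 5.

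Of the enzymes at the squalene steps, FDFT1, squalene synthase, had a log2 fold change of -0.24 (95% CI -0.48 to -0.00011). SQLE, squalene epoxidase and a rate-limiting step, had one of 0.21 (95% CI -0.02 to 0.45). SQLE was at 94.7, 88.8 and 121 CPM in WT and 116, 119 and 119 CPM in ARID1A-KO samples, so that only WT replicate 5 kept the genotypes from separating, and the change without that sample was 0.36 (adjusted p = 0.00522, edgeR's quasi-likelihood test). The late steps had values near 0, with 0.01 (95% CI -0.14 to 0.17) for EBP, the sterol isomerase, and -0.03 (95% CI -0.25 to 0.20) for DHCR7, the last reductase. TM7SF2, the C14 sterol reductase, had a log2 fold change of 0.10 (95% CI -0.19 to 0.39), but it overlaps VPS51 on the same strand, so its counts are uncertain. STARD4, a cytosolic sterol carrier, had a log2 fold change of -0.10 (95% CI -0.42 to 0.22).

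Of the 5 fatty acid genes, 1 was lower (20%, beside 36.2% of all genes called either way) and none was called higher. ACACA, acetyl-CoA carboxylase, which makes malonyl-CoA and commits acetyl-CoA to fatty acids, had 162, 179 and 195 CPM in WT and 152, 156 and 141 CPM in ARID1A-KO samples. The genotypes did not overlap, but the highest ARID1A-KO sample was close to the lowest WT sample. ACACA (ENSG00000132142.15, chromosome 17, minus strand, 35441923 to 35766909 in GRCh37) fell by 0.25 on the log2 scale (95% CI -0.43 to -0.08, SE 0.08, adjusted p = 0.0317, edgeR's quasi-likelihood test). This call was the least stable of the 6. It was lost when any sample other than WT replicate 3 was left out, with an adjusted p of up to 0.103, and with an offset on exonic length, where the change was -0.04 (adjusted p = 0.744).

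The other enzymes of the route had values on either side of 0 and did not pass the test. FASN, which builds palmitate from malonyl-CoA, had 435, 473 and 579 CPM in WT and 510.1, 613 and 587 CPM in ARID1A-KO samples, a log2 fold change of 0.20 (95% CI -0.05 to 0.45). SCD, which introduces the first double bond, had 169, 148 and 213 CPM in WT and 203, 205 and 223 CPM in ARID1A-KO samples, a log2 fold change of 0.25 (95% CI -0.01 to 0.52). As with SQLE, WT replicate 5 was the sample that overlapped, and without it the change was 0.41 for SCD (adjusted p = 0.00913) and 0.33 for FASN (adjusted p = 0.0374). With all samples kept, FASN was called higher with the offset on exonic length, whereas with the offset on GC content it turned to -0.10 (adjusted p = 0.454). ACLY, upstream of both pathways, had a log2 fold change of 0.03 (95% CI -0.15 to 0.22), and ELOVL6, which extends palmitate, one of -0.07 (95% CI -0.27 to 0.12).

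The chromosomal surroundings of 3 called members moved with them. For every member, the other genes tested whose starts lay within 5 Mb were taken as neighbours. The median log2 fold change of the neighbours was within 0.2 of 0 for 24 members and past 0.3 in size for 4, ACAT2, MSMO1, MVD and SCD. ACAT2 had 40 neighbours with a median of -1.04, of which 32 were called lower and 3 higher. WTAP and SOD2, the genes tested with the nearest starts on either side, had log2 fold changes of -1.13 and -0.98. All 22 neighbours of MSMO1 were called lower, with a median of -1.42, and CPE and TMEM192 beside it had log2 fold changes of -1.44 and -1.08. MVD had 89 neighbours with a median of 0.40, 47 called higher and 7 lower, and ZC3H18 and SNAI3-AS1 beside it had log2 fold changes of 0.44 and 0.17.

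With the neighbours' median as an offset, ACAT2 was still lower, by a log2 fold change of -0.78 (adjusted p = 0.00144, edgeR's quasi-likelihood test). The offset was entered as a fixed value, so p-values under it leave out the spread among neighbours. Quartiles of the neighbours of ACAT2 were at -1.42 and -0.76, and some neighbours fell further than ACAT2, such as SYTL3 (-2.05) and C6orf99 (-5.64). MSMO1 changed sign to 0.40 (adjusted p = 0.0773), and MVD came to 0.18 (adjusted p = 0.294). MSMO1 had thus fallen less than the median gene around it, and the rise of MVD beyond that of its neighbours did not pass the test. INSIG2, PMVK and ACACA had neighbour medians of -0.11, 0.08 and -0.0058. Their changes after the offset were -0.57 (adjusted p = 0.008), 0.53 (adjusted p = 0.000891) and -0.25 (adjusted p = 0.0389). For INSIG2, 3 of 45 neighbours were called higher and 13 lower, and CCDC93 beside it had a log2 fold change of -0.17. The genes tested nearest to PMVK by start, PBXIP1 and KCNN3, had log2 fold changes of 0.52 and -1.04. Under this offset FDFT1 was called lower as well, at -0.41 (adjusted p = 0.0176), and SCD, whose 124 neighbours had a median of 0.41, had a value of -0.16. Why genes around ACAT2, MSMO1 and MVD shifted together was not tested.

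**Figure D5:**
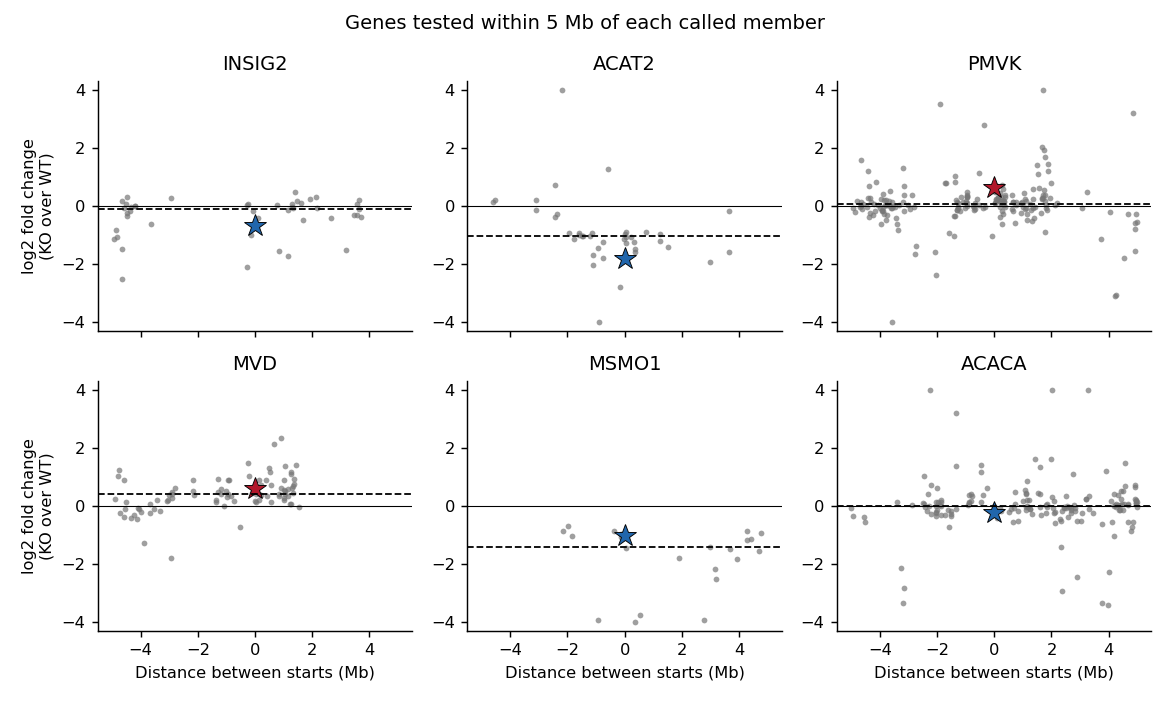
Log2 fold change (ARID1A-KO over WT) of every gene tested within 5 Mb of each called member, against the distance between gene starts in Mb. The star is the member, grey points are its neighbours, the dashed line is their median and points beyond 4 on either side are drawn at 4. Neighbours of MSMO1 all lie below 0, most neighbours of ACAT2 do, and most neighbours of MVD lie above 0. The medians for INSIG2, PMVK and ACACA are -0.11, 0.08 and -0.0058, with 29 of the 45 neighbours of INSIG2 below 0.

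Further genes of lipid metabolism, 68 in 6 lists and all tested, were read from the same fit, and 34 were called (50%, against 36.2% of all genes), 16 higher and 18 lower, with a median log2 fold change of 0.0050. With the neighbour offset, 19 of the 34 were called in the same direction and 15 were not. By list, the share called was 33.3% for other sterol synthesis, 40% for SREBP processing and 55% for other fatty acid genes. It was 71.4% for efflux and LXR targets, 60% for uptake and storage and 41.7% for glycerolipid genes. Of 9 other sterol synthesis genes, 2 were higher, among them ERG28, a scaffold of the C4 demethylation enzymes, and 1 was lower (LBR, the nuclear envelope protein that also has C14 sterol reductase activity). LBR had 183, 162 and 172 CPM in WT and 106, 107 and 111 CPM in ARID1A-KO samples, a log2 fold change of -0.68 (adjusted p = 5.65e-05, edgeR's quasi-likelihood test). ERG28 had a log2 fold change of 0.44, but 0.02 (adjusted p = 0.836) with the neighbour offset. In these lists, genes other than ABCA1 and PLIN2 are named after their values were seen. Of 10 SREBP processing genes, 2 were higher and 2 lower. The proteases that release SREBPs had opposite signs, with log2 fold changes of -0.36 for MBTPS1 and 0.33 for MBTPS2. PAQR3, a Golgi protein, was at -0.32. Of 20 other fatty acid genes, 3 were higher and 8 lower. The higher ones were FADS1, a desaturase, ACSS2, which makes acetyl-CoA from acetate, and ELOVL1, an elongase, with log2 fold changes of 0.39, 0.37 and 0.34, of which ACSS2 and ELOVL1 were not called with the neighbour offset (0.16 and 0.20). The lower ones ran from -0.79 for ACSL1, an acyl-CoA synthetase, to -0.26 for ME1, malic enzyme. With the neighbour offset, ME1 was not called (-0.22, adjusted p = 0.0744, edgeR's quasi-likelihood test). Nor were HACD2 (-0.07, adjusted p = 0.443), TECR (-0.14, adjusted p = 0.253) and ACSL4 (-0.15, adjusted p = 0.303), while the rest of the lower ones were still called lower.

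Of 7 sterol efflux and LXR target genes, 2 were higher and 3 lower. ABCA1, the transporter that passes cholesterol to lipoproteins, had 1.71, 1.45 and 1.53 CPM in WT and 0.661, 0.673 and 0.875 CPM in ARID1A-KO samples, and fell by 1.07 on the log2 scale (adjusted p = 0.00181, edgeR's quasi-likelihood test). Its neighbours had a median of -0.06. ABCG1, a related transporter, was lower as well, with a log2 fold change of -0.89, while NR1H3, which encodes LXR-alpha, and LPCAT3 were higher, at 0.35 and 0.29 (NR1H3 at 0.24 with the neighbour offset, adjusted p = 0.0737). Of 10 uptake and storage genes, 4 were higher and 2 lower. NPC2, which carries cholesterol in lysosomes, GRAMD1B, SCARB1 and STARD3 had log2 fold changes of 0.30 to 0.52, and VLDLR and SOAT1 were at -0.58 and -0.21. With the neighbour offset NPC2 came to 0.15 (adjusted p = 0.195), SOAT1 to -0.13 (adjusted p = 0.171) and VLDLR to 0.25 (adjusted p = 0.284), so these calls were lost. Of 12 glycerolipid genes, 3 were higher and 2 lower. GPAT3 and DGAT2, which act at the first and last steps of triglyceride synthesis, were both at 0.93 and AGPAT2 at 0.53, while PCYT1A was at -0.19, and 0.08 with the neighbour offset (adjusted p = 0.312). PLIN2, which coats lipid droplets, had 54.4, 62.1 and 56.3 CPM in WT and 30.1, 29.1 and 26.9 CPM in ARID1A-KO samples. It fell by 1.01 on the log2 scale (adjusted p = 1.85e-05), with neighbours at a median of -1.48, and the neighbour offset turned it to 0.47 (adjusted p = 0.00155).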

How the data were processed

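RNA from untreated AID-DIvA cells, 3 WT and 3 ARID1A-KO samples grouped by the labelled genotype, was sequenced. The authors prepared stranded total RNA libraries, although the labels name polyA RNA, ran STAR on read pairs against GRCh37 within the Roddy workflow, and counted genes with featureCounts. The methods name a gene annotation lifted to GRCh37, and whether the tables rest on that release was not settled. Tool versions are not given in the sources used here. The deposited tables hold whole-number counts per gene, not normalized, with and without regard to strand, and reverse-stranded counts were used. Levels per length are the TPM values that the authors deposited, in the reverse-stranded column with an equal sum in every sample.

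Counts of all genes were kept where filterByExpr passed them, scaled by TMM and compared by edgeR's quasi-likelihood test (edgeR 4.0.16, R 4.3.3), with all 6 samples, no covariate and Benjamini-Hochberg adjustment over the 19599 genes tested. An adjusted p under 0.05 was called, and CPM are TMM-scaled. Deviations between samples used log2 CPM with 0.5 added. The fits were tested on simulated data. With 3 samples against 3, an exact permutation test of a single value has no p below 0.1, so none was used.

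The members and lists were chosen with earlier results of these data known. All 28 members are named, and of the other lists the called genes with an absolute log2 fold change of at least 1 and no overlap in CPM, apart from those said to be named after their values were seen. The settings changed in turn were the strand of the counts, the normalization (RLE), the tool (DESeq2 1.42.0), the filter (none, or 10 counts in every sample), the threshold (0.01), a block for the replicate number, per-sample offsets by loess with a span of 0.3 for exonic length or for GC content (known for 27 members), an offset by the neighbours' median change (within 5 Mb), and the samples, each left out once. PECAM1 had no row. The values of some genes in the other lists are not reported here. No sample pair agreed within sampling noise, since the chi-square divided by the number of genes was 7.57 to 32.9.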

Additional observations from a re-analysis of the deposited data

How the results depend on the processing

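Against 2 members called higher and 4 lower, the number higher was 7 with no filter, 6 with an offset on GC content, 4 with an offset on exonic length and 1 with the neighbour offset, and between 2 and 8 with a sample left out, where 8 was without WT replicate 5. With no filter, the GC offset, a replicate block or without WT replicate 5, the share of members called was above that of all genes. The number lower was 3 to 6 under every alternative. DESeq2 called 3 higher and 5 lower, adding CYP51A1 and LSS. MSMO1 changed sign only with the neighbour offset, to 0.40. The median of the members ran from -0.0050 to 0.10 with a sample left out. A replicate block gave 6 higher and 6 lower, 42.9% of the members against 38.1% of all genes. Same-numbered samples did not deviate together throughout (Pearson r over 13217 genes of -0.24, 0.50 and 0.32 for numbers 3, 4 and 5), so the numbers were not taken as pairs. At an adjusted p under 0.01, 2 were higher and 3 lower. ACAT2, INSIG2 and PMVK were called under all 15 alternatives. Of the other pathway genes, 24 to 30 were called with a sample left out, against 34. For these genes the other settings were added after seeing the data, and 25 to 35 were called. The neighbour offset turned PLIN2 to 0.47, VLDLR to 0.25 and PCYT1A to 0.078. The causes of these shifts were not tested. At 264 to 545 counts per sample, CYP51A1 had the fewest counts of the members.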
